A study of Arabidopsis thaliana with 9 samples.

Results

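The comparison described here sets siliques of Arabidopsis thaliana plants heterozygous for the ago3-3 allele against siliques of wild-type Columbia-0 plants. Siliques are the fruits that enclose the developing seeds. The members are 4 of the 9 samples of the series, taken by their column labels: 2 mRNA libraries from heterozygous plants and 2 from wild-type plants. Of 34262 gene rows in the mRNA table, 22702 passed the filter on low counts and were tested.

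All plants were of the Columbia-0 accession, and all siliques were harvested 1 to 5 days after pollination per the labels. Heterozygous plants carried 1 ago3-3 copy of ARGONAUTE 3 (AGO3) and 1 wild-type copy, homozygous plants carried 2 ago3-3 copies, and wild-type plants carried none. The sample tags write ago3-3 for both mutant genotypes, and the series design text separates heterozygous from homozygous plants. That text gives 2 biological samples per genotype. The sources used here do not state the kind of lesion in ago3-3, the number of siliques in a sample or the parent that passed on the mutant copy. The fruits of a heterozygous plant hold maternal tissue of 1 genotype and seeds that can differ in genotype, and each library is the sum of both. The 2 homozygous mRNA libraries entered the fit to estimate the spread, and 3 unreplicated small RNA libraries (AGO3 immunoprecipitate, control immunoprecipitate and total small RNA) are used only near the end.

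ARGONAUTE proteins carry a small RNA and use it to find matching transcripts, which they cleave or hold back from translation, or matching chromatin, where they direct DNA methylation. AGO3 is the closest relative of AGO2 in Arabidopsis and lies beside it on chromosome 1. AGO4, AGO6 and AGO9 act mainly in RNA-directed DNA methylation, a pathway in which small interfering RNAs made by RNA polymerase IV, RDR2 and DCL3 guide the methyltransferase DRM2.

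The total estimated count was 35857127 and 34505168 in heterozygous libraries 1 and 2, and 36258980 and 30338416 in wild-type libraries 1 and 2. Gene levels are given in CPM (counts scaled to library size, here with the trimmed mean of M-values, TMM). Scaled by the total count alone, without TMM, 3 counts in a library came to between 0.0827 and 0.0989 CPM. Wild-type library 1 stood apart on the first principal component, which held 37.3% of the variance: its score was 49.87, and that of homozygous library 2 was 44.18. The other 4 libraries scored between -27.05 and -20.03. Structural RNA rows (rRNA, tRNA, snRNA, snoRNA) took 6.6% and 5.26% of counts in heterozygous libraries, against 3.7% and 9.49% in wild-type libraries. Over all tested genes the median absolute log2 gap was 0.179 between the heterozygous libraries and 0.217 between the wild-type libraries, and it was 0.183 to 0.212 in the pairs of a heterozygous with a wild-type library. Pairs of libraries across genotypes were thus about as far apart as libraries within a genotype. For the gene lists described in most detail, values without wild-type library 1 are given beside the result. With that library left out, heterozygous libraries were both below the remaining wild-type library for 35.2% of all tested genes and both above it for 34.2%. The p-values measure the spread between these samples, and in bulk siliques fewer cells of a type and less RNA per cell cannot be told apart.

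AGO3 mRNA was lower in both heterozygous libraries than in both wild-type libraries, but the difference did not pass the test across all genes. The AGO3 level was 12.6 and 12.0 CPM in heterozygous siliques, 2.11 and 3.29 CPM in homozygous siliques, and 30.4 and 17.7 CPM in wild-type siliques. The genotypes did not overlap, and heterozygous libraries lay between the homozygous and the wild-type ones, in the order of their labels. Mean AGO3 expression was 12.3 ± 0.403 CPM in heterozygous siliques and 24.02 ± 8.999 CPM in wild-type siliques (SD, n = 2 each), so that heterozygous siliques held 51.3% of the wild-type mean. The log2 difference of AGO3 was -0.96 ± 0.28 (SE), with an unadjusted p of 0.0099 and an adjusted p of 0.955 by the edgeR quasi-likelihood test. Its size moved with the wild-type library used: -0.52 without wild-type library 1 and -1.29 without wild-type library 2.

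The other ARGONAUTE genes had similar values in both genotypes. AGO2, which also acts in antiviral silencing, measured 52.3 and 47.5 CPM in heterozygous siliques, against 44.1 and 45.2 CPM in wild-type siliques. The genotypes did not overlap, and its log2 difference was 0.16 ± 0.13, with an unadjusted p of 0.25 by edgeR. AGO1, the main carrier of microRNAs, measured 175 and 164 CPM in heterozygous siliques and 157 and 165 CPM in wild-type siliques. The log2 differences of the 8 measured family members other than AGO3 ran from -0.12 for AGO5 to 0.16 for AGO2. AGO8 was not matched in the gene table and is not analysed here.

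**Figure D1:**
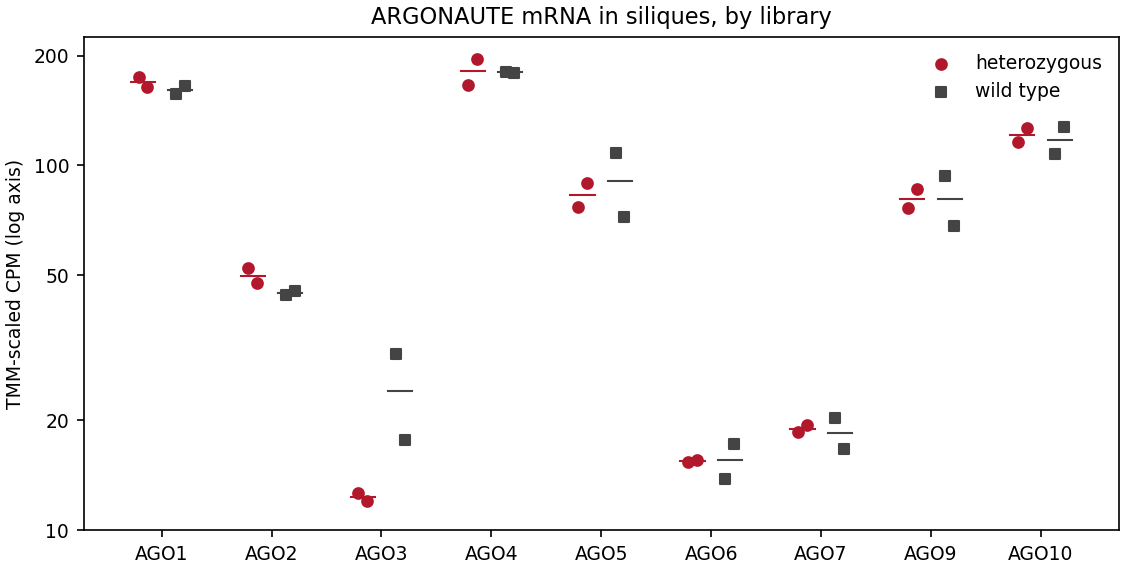
TMM-scaled CPM (log axis) of the 9 measured ARGONAUTE genes, with 1 point per library, heterozygous left of wild type, and a bar at each genotype's mean (n = 2). AGO3 is at 12.6 and 12.0 CPM in heterozygous libraries, below the 30.4 and 17.7 CPM of wild-type libraries.

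Across the transcriptome few genes separated heterozygous from wild-type siliques beyond the spread between libraries. The edgeR test called 0 of 22702 genes (0%) at an adjusted p of 0.05, and its smallest adjusted p was 0.955. At an unadjusted p of 0.05, 1006 genes passed (4.43%), fewer than the 1135 that a uniform spread of p-values would give. Of these, 597 were lower (2.63%) and 409 were higher (1.8%) in heterozygous siliques. limma-voom also called 0 genes. DESeq2, fitted to the same genes and libraries, gave an adjusted p to 19621 genes and called 16 (0.0815%). It called 15 genes lower (0.0764%) and 1 gene higher (0.0051%) in heterozygous siliques. All 16 were among the 1006 genes by edgeR, and a DESeq2 fit to every row with a count called 17 genes, 12 of them shared with the 16. The rest of the 16 (NIT3, AT3G22235, AT4G06945 and AT5G02580) were given no adjusted p in that fit. These calls are given below as calls of DESeq2 alone, and each log2 difference with its SE is from edgeR unless DESeq2 is named.

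Among the 100 genes with the smallest p, heterozygous libraries were both below both wild-type libraries for 77 and both above for 23. This lean toward lower values was absent without wild-type library 2, where genes with a small p and DESeq2 calls were more often higher. Without wild-type library 1, genes with a small p were split nearly evenly by edgeR and were more often higher by DESeq2. The DESeq2 calls without that library were mostly lower. Over all tested genes, heterozygous libraries were both below for 4050 (17.8%) and both above for 3717 (16.4%), together 7767 (34.2%), and the median log2 difference was -0.0034. That median was 0.0018 without wild-type library 1 and 0.0052 without wild-type library 2. With TMM scaling, the excess of lower values lay at high expression. Of the 1378 genes with a mean log2 CPM of 7 or more, 27.6% were below and 11.5% above in heterozygous siliques, against 16.5% below and 16.7% above for genes with a mean log2 CPM under 1.

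**Figure D2:**
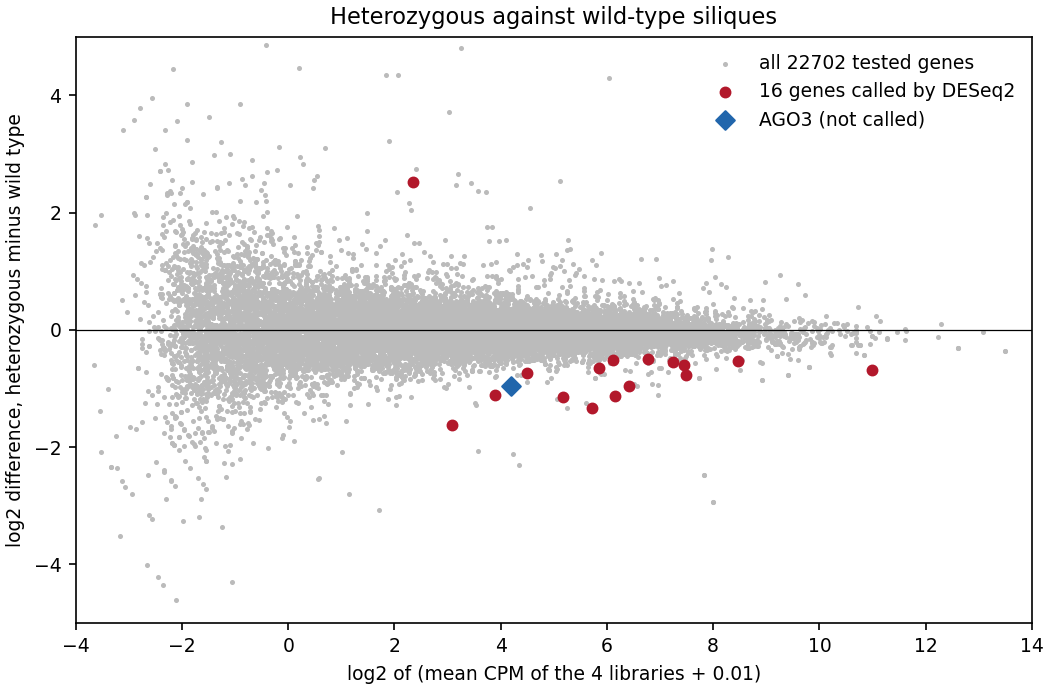
Log2 difference, heterozygous minus wild type, against log2 of mean CPM for the 22702 tested genes. The 16 genes called by DESeq2 are in red (15 below 0 and NIT3 above it) and AGO3 is the blue diamond at -0.96. The vertical axis ends at an absolute value of 5, and 10 genes lie outside it, among them the seed storage genes SESA2, SESA3 and SESA4.

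The gene called higher by DESeq2 was NIT3, which encodes a nitrilase, an enzyme that hydrolyses nitriles and has been linked to auxin synthesis. NIT3 measured 10.2 and 7.28 CPM in heterozygous siliques, 1.70 and 3.90 CPM in homozygous siliques, and 1.68 and 1.32 CPM in wild-type siliques. Both heterozygous libraries were above the other 4 mRNA libraries. The log2 difference was 2.53 ± 0.42 by edgeR, a fold of 5.77, with a DESeq2 adjusted p of 0.000139. The gene lies in a row of nitrilase genes. NIT2, its neighbour, measured 56.4 and 57.8 CPM in heterozygous siliques, against 27.7 and 48.7 CPM in wild-type siliques, and NIT1 overlapped between the genotypes. How reads shared by these similar genes were counted is not given in the sources used here, so the split among them is uncertain.

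Among the 15 genes called lower, a pair belongs to the responses to cold, dehydration and strong light. ELIP1, an early light-induced protein that binds chlorophyll in the thylakoid membrane under light stress, measured 36.7 and 23.6 CPM in heterozygous siliques, 77.8 and 56.6 CPM in homozygous siliques, and 84.0 and 67.3 CPM in wild-type siliques. Both heterozygous libraries were below the other 4. ELIP1 was 2.51-fold lower in heterozygous than in wild-type siliques (log2 difference -1.33 ± 0.24, DESeq2 adjusted p 0.000324). Its paralogue ELIP2 measured 31.9 and 34.4 CPM in heterozygous siliques and 23.2 and 34.8 CPM in wild-type siliques, and so overlapped.

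KIN2, a small cold-induced protein, measured 70.0 and 45.4 CPM in heterozygous siliques, against 121 and 104 CPM in wild-type siliques. The homozygous libraries, at 62.4 and 52.8 CPM, lay within the heterozygous range. KIN2 was 1.95-fold lower in heterozygous than in wild-type siliques (log2 difference -0.96 ± 0.20, DESeq2 adjusted p 0.0166). KIN1 is its near-identical tandem neighbour, at 6.82 and 3.61 CPM in heterozygous siliques and 9.14 and 11.7 CPM in wild-type siliques, and reads of the pair may be shared.

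FLS1 and CHIL act in flavonoid synthesis, FLS1 as the flavonol synthase and CHIL as a chalcone isomerase-like protein that aids the first enzyme of the pathway. FLS1 measured 92.3 and 90.101 CPM in heterozygous siliques, 92.4 and 91.2 CPM in homozygous siliques, and 133 and 124 CPM in wild-type siliques. The 4 mutant libraries lay within a narrow range below both wild-type libraries, and the log2 difference, heterozygous minus wild type, was -0.49 ± 0.10 (DESeq2 adjusted p 0.0166). CHIL measured 306 and 270 CPM in heterozygous siliques, against 436 and 396 CPM in wild-type siliques (log2 difference -0.53 ± 0.12, DESeq2 adjusted p 0.0195).

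CSD2 encodes the chloroplast copper/zinc superoxide dismutase, a known target of miR398. It measured 120 and 125 CPM in heterozygous siliques, 98.3 and 85.9 CPM in homozygous siliques, and 172 and 185 CPM in wild-type siliques. No genotypes overlapped, and heterozygous values lay between homozygous and wild-type values. The log2 difference was -0.54 ± 0.11, heterozygous minus wild type, with a DESeq2 adjusted p of 0.0278. In the same list the cytosolic enzyme CSD1 overlapped between the genotypes, and CCS, the copper chaperone of both enzymes, measured 27.3 and 28.5 CPM in heterozygous siliques and 30.9 and 31.4 CPM in wild-type siliques. FSD1 of that list went the other way, at 247 and 200 CPM in heterozygous siliques and 185 and 165 CPM in wild-type siliques. Its log2 difference was 0.35 ± 0.18, without a call.

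A further pair of named genes called lower have known roles outside these pathways. ARP9, an actin-related protein, measured 22.01 and 22.9 CPM in heterozygous siliques, 34.4 and 40.3 CPM in homozygous siliques, and 37.0 and 62.2 CPM in wild-type siliques. Heterozygous libraries were the lowest of the 6, and the log2 difference was -1.14 ± 0.23 (DESeq2 adjusted p 0.00863). IRX15-L, which acts in xylan synthesis in secondary walls, measured 137 and 139 CPM in heterozygous siliques, against 233 and 187 CPM in wild-type siliques (log2 difference -0.60 ± 0.13, DESeq2 adjusted p 0.046).

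AT5G14920 is GASA14 in the gene table, a member of a family of small gibberellin-regulated peptides. It measured 35.5 and 53.3 CPM in heterozygous siliques, against 103 and 90.5 CPM in wild-type siliques (log2 difference -1.13 ± 0.27, DESeq2 adjusted p 0.0439). The remaining 7 genes called lower have no name in the gene table. Their log2 differences by DESeq2 ran from -1.61 for AT3G22235 to -0.51 for AT4G35320. The smallest adjusted p among them, 0.000286, belonged to AT5G62210, at 148 and 119 CPM in heterozygous siliques and 223 and 230 CPM in wild-type siliques. The highest CPM among them, not scaled to gene length, was that of AT1G56100, at 1513 and 1618 CPM in heterozygous siliques and 2820 and 2213 CPM in wild-type siliques. One of the 7, AT4G06945, is a long non-coding RNA, at 9.28 and 9.42 CPM in heterozygous siliques and 22.4 and 18.1 CPM in wild-type siliques.

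AT3G22235 lies beside PCC1, a gene named for its control by pathogens and the circadian clock. AT3G22235 measured 3.68 and 4.63 CPM in heterozygous siliques, 14.2 and 14.3 CPM in homozygous siliques, and 17.3 and 8.16 CPM in wild-type siliques (DESeq2 adjusted p 0.0094). PCC1 measured 4.05 and 5.05 CPM in heterozygous siliques, 25.7 and 23.9 CPM in homozygous siliques, and 28.2 and 10.1 CPM in wild-type siliques. For both genes the heterozygous libraries were the lowest of the 6 and the homozygous libraries were within the wild-type range. PCC1 had a log2 difference of -2.08 ± 0.43 and was not called by either test on all 6 libraries (DESeq2 adjusted p 0.274).

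**Figure D3:**
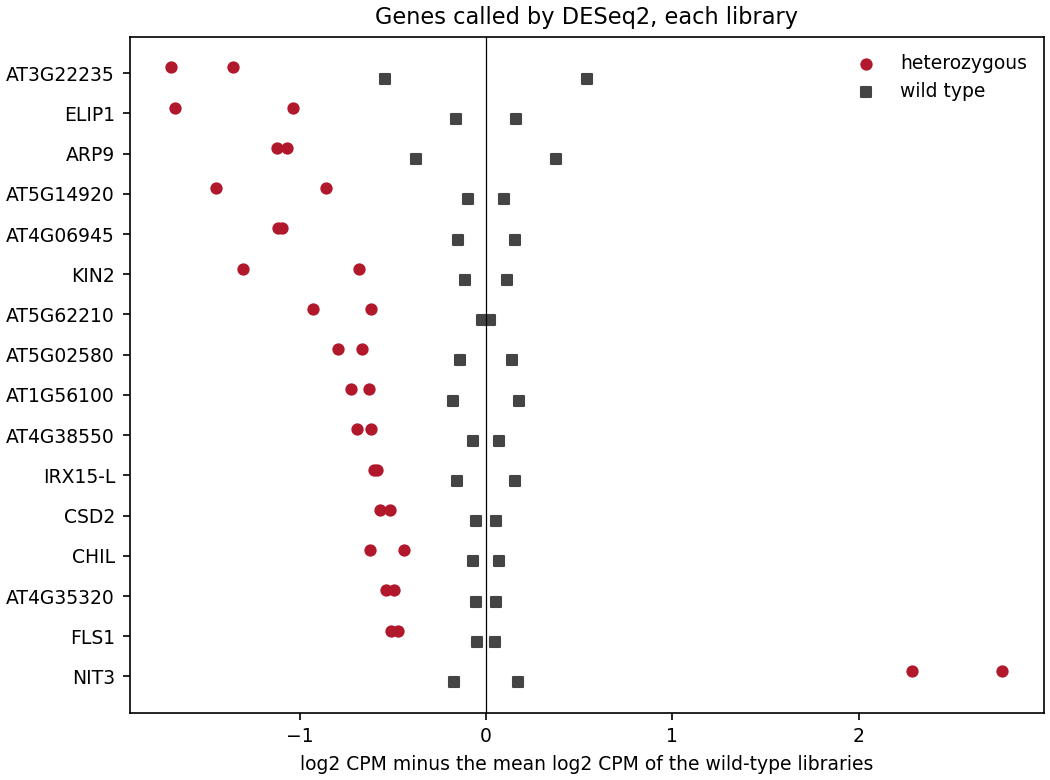
Each library's log2 CPM minus the mean log2 CPM of the wild-type libraries, for the 16 genes called by DESeq2, ordered by log2 difference with NIT3 last. Both heterozygous points lie left of both wild-type points for 15 genes and right of them for NIT3.

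The calls moved with the libraries used. With wild-type library 1 left out, DESeq2 called 20 genes, and 4 of the 16 were among them (ELIP1, NIT3, ARP9 and AT5G62210). With wild-type library 2 left out it called 243, of which 11 were shared, with heterozygous library 1 left out 17 (3 shared), and with heterozygous library 2 left out 7 (2 shared). The edgeR test called 0 genes without heterozygous library 1, heterozygous library 2 or wild-type library 1, and 4 without wild-type library 2 (JMT, PCC1, AT2G25510 and AT3G50990). With wild-type library 1 and homozygous library 2 both left out, edgeR called 22 genes, 20 of them lower. Of these 22, NIT3 and ARP9 were also among the 16, and most of the others were rows of structural RNA.

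The gene lists below were described by the number of members whose libraries did not overlap, beside the 17.8% below and 16.4% above over all tested genes. The lists were chosen with earlier results of these data known, so these shares are descriptions and carry no test. In the list of seed coat and flavonoid genes, which holds the enzymes and regulators of the pigments of the seed coat, 17 of 20 tested members had a lower value in heterozygous siliques. Both heterozygous libraries were below both wild-type libraries for 11 (55%) and above for 0, and the median log2 difference was -0.30. FLS1 and CHIL were the 2 called by DESeq2. TT4, the chalcone synthase that starts the pathway, measured 630 and 530 CPM in heterozygous siliques, against 773 and 773 CPM in wild-type siliques. DFR, the reductase that leads to anthocyanins and tannins, measured 238 and 215 CPM in heterozygous siliques, against 334 and 282 CPM in wild-type siliques. Its log2 difference was -0.44 ± 0.13, without a call. The 11 members below were TT4, TT5, F3H, TT7, FLS1, DFR, LDOX and BAN, which are enzymes, with CHIL, the transporter TT12 and the regulator TT1. The other 9 overlapped: the regulators TT2, TT8, TT16, TTG1, TTG2 and MYB5, with GSTF12, AHA10 and TT10. TT10, a laccase that oxidises tannins late in seed coat development, measured 334 and 383 CPM in heterozygous siliques, and 64.1 and 351 CPM in wild-type siliques, where the low value was that of library 1. Without wild-type library 1, 16 members were lower, 11 (55%) were below wild-type library 2, against 35.2% of all genes, and the median log2 difference was -0.15.

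In the list of cold, dehydration and high-light genes, 18 of 22 tested members were lower in heterozygous siliques. For 13 (59.1%) both heterozygous libraries were below, for 2 (9.09%) both were above, and the median log2 difference was -0.29. Single members ran from -1.33 to 2.82, so the largest difference was upward. ELIP1 and KIN2 were the 2 called by DESeq2. COR15A and COR15B protect chloroplast membranes in freezing. COR15B measured 87.4 and 40.3 CPM in heterozygous siliques, 76.4 and 53.1 CPM in homozygous siliques, and 122 and 127 CPM in wild-type siliques. COR15A measured 87.2 and 39.6 CPM in heterozygous siliques, 82.9 and 50.7 CPM in homozygous siliques, and 136 and 103 CPM in wild-type siliques. In both genes heterozygous library 2 was lowest, and neither genotype's values overlapped those of wild type. LTI78 and LTI30, proteins induced by low temperature, were likewise lower, at log2 differences of -0.74 ± 0.32 and -0.63 ± 0.32 and without a call. RD22, a gene induced by dehydration, measured 1088 and 935 CPM in heterozygous siliques, against 1305 and 1357 CPM in wild-type siliques. Of the upstream regulators, DREB1A was near 1 CPM in every library (0.856 and 0.874 CPM in heterozygous siliques, 0.973 and 1.15 CPM in wild-type siliques). Without wild-type library 1, 17 members were lower, 14 (63.6%) were below, against 35.2% of all genes, and the median was -0.17.

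Genes of embryo and seed maturation went the other way, without a call. Of 16 tested members 14 were higher in heterozygous siliques, for 11 (68.8%) both heterozygous libraries were above both wild-type libraries, and the median log2 difference was 1.65. The summed level of the list was 156 and 375 CPM in heterozygous siliques, 239 and 62.0 CPM in homozygous siliques, and 55.8 and 133 CPM in wild-type siliques. Homozygous library 2 and wild-type library 1, the pair that stood apart on the first principal component, had the 2 lowest sums, and heterozygous library 2 had the highest. OLEO1, a coat protein of oil bodies, measured 23.7 and 94.4 CPM in heterozygous siliques, 49.2 and 2.03 CPM in homozygous siliques, and 3.87 and 16.7 CPM in wild-type siliques. CRA1, a cruciferin storage globulin, measured 6.25 and 30.5 CPM in heterozygous siliques, against 0.0541 and 1.36 CPM in wild-type siliques. SESA3, a storage albumin, measured 3.23 and 33.6 CPM in heterozygous siliques, and 0.027 and 0.859 CPM in wild-type siliques. Storage genes thus varied several-fold within each genotype, and the edgeR p of CRA1 was 0.025 before adjustment and 0.955 after. Of the embryo regulators, LEC1, LEC2, ABI3, WOX2 and WOX8 overlapped between the genotypes. FUS3, a regulator of maturation, measured 12.2 and 16.6 CPM in heterozygous siliques, against 4.92 and 10.9 CPM in wild-type siliques. NF-YB6 (LEC1-LIKE) measured 17.38 and 28.9 CPM in heterozygous siliques, against 2.57 and 13.9 CPM in wild-type siliques. Without wild-type library 1, 13 members were higher, 11 (68.8%) were above, against 34.2% of all genes, and the median was 1.12. It was 1.01 without heterozygous library 2 and 2.88 without wild-type library 2. Differences in silique age between libraries were not tested. CRU2 and SESA4 were at 0 in both wild-type libraries, and setting them at the value of 3 counts left the median at 1.65.

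**Figure D4:**
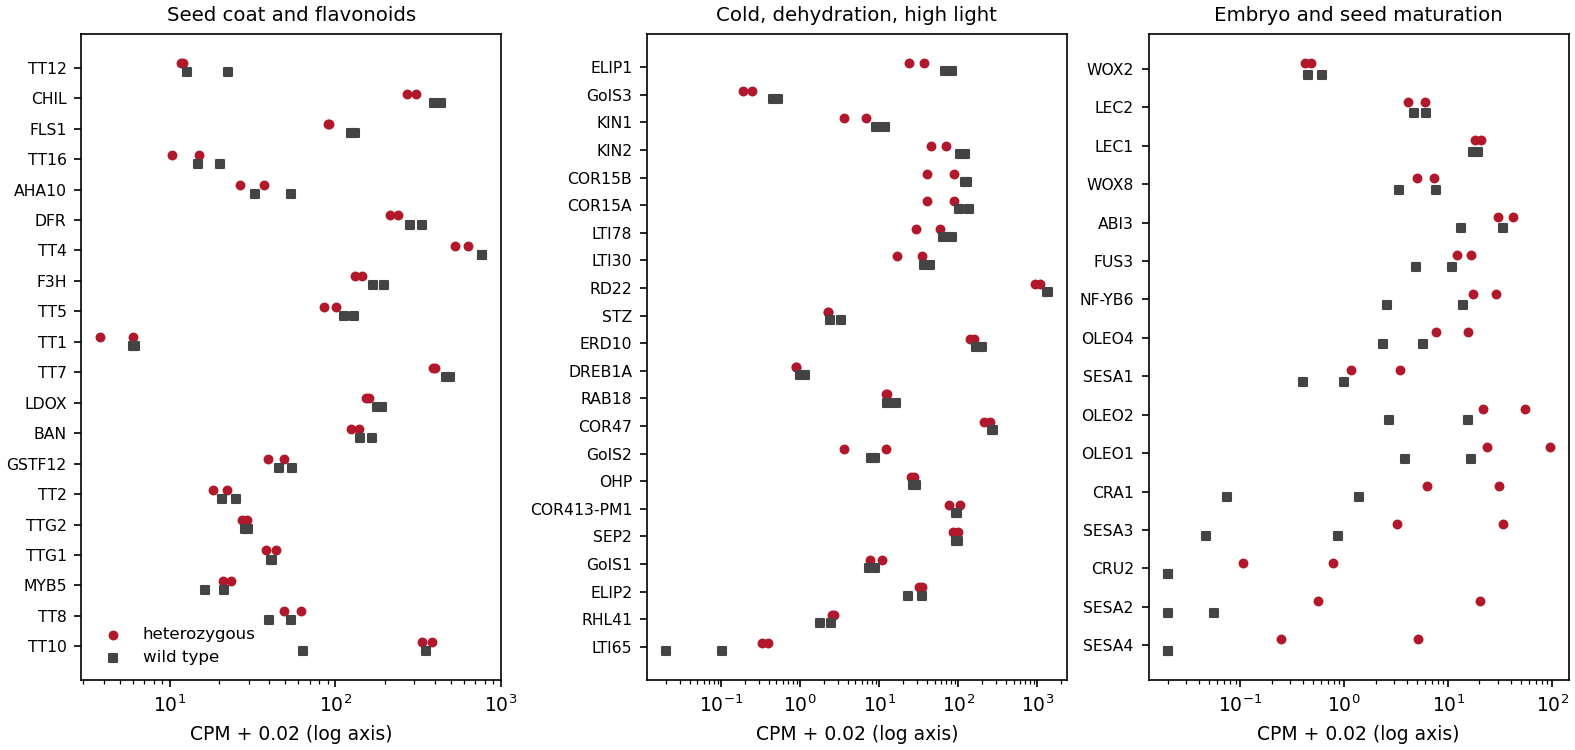
CPM plus a small constant (log axis) in each heterozygous and wild-type library, for all tested members of 3 lists, ordered by log2 difference. Flavonoid enzymes and COR genes lie to the left in heterozygous libraries by small steps, while storage genes such as SESA3 (3.23 and 33.6 CPM heterozygous, 0.027 and 0.859 CPM wild type) spread widely within each genotype.

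Heat shock and protein folding genes were higher in heterozygous siliques for 11 of 12 tested members, with 7 (58.3%) above, 1 (8.33%) below and a median log2 difference of 0.55. HSP70, a cytosolic chaperone induced by heat, measured 15.6 and 32.8 CPM in heterozygous siliques, against 8.87 and 15.4 CPM in wild-type siliques. HSP90.1, another inducible chaperone, measured 16.1 and 26.6 CPM in heterozygous siliques, against 14.6 and 13.5 CPM in wild-type siliques. Heterozygous library 2 held the larger value in both, and no member was called. The median was 0.83 without heterozygous library 1, 0.19 without heterozygous library 2 and 0.31 without wild-type library 1.

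Genes of RNA-directed DNA methylation had no member past the test on the 22702 tested genes. Of 19 members, 13 had a higher value in heterozygous siliques and 6 a lower one, 9 (47.4%) were above, 1 (5.26%) was below, and the median log2 difference was 0.08. IDN2, a double-stranded RNA-binding protein that acts at sites of RNA polymerase V transcription, measured 48.0 and 52.6 CPM in heterozygous siliques, 42.4 and 39.1 CPM in homozygous siliques, and 34.8 and 33.8 CPM in wild-type siliques. The genotypes did not overlap, heterozygous libraries were the highest of the 6, and the log2 difference was 0.55 ± 0.11 (DESeq2 adjusted p 0.0508, or 0.036 in the fit to every row with a count). Its partner FDM1 measured 70.8 and 87.4 CPM in heterozygous siliques, against 57.3 and 58.7 CPM in wild-type siliques (log2 difference 0.45 ± 0.13, without a call). CHR38 is the CLASSY1 chromatin remodeller that recruits RNA polymerase IV, and measured 33.1 and 31.0 CPM in heterozygous siliques, against 20.6 and 26.3 CPM in wild-type siliques. The other CLASSY genes were not matched in the gene table and are not analysed here. RDR2 and DCL3, which make the small RNAs, overlapped, as did NRPD1A, the largest subunit of RNA polymerase IV. Without wild-type library 1, 12 members were higher, 9 (47.4%) were above, against 34.2% of all genes, and the median was 0.07. The median was 0.20 without heterozygous library 1 and 0.17 without wild-type library 2.

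Enzymes that maintain or remove DNA methylation had 4 of 16 members above (25%) and 0 below, with a median log2 difference of 0.07, and 0.17 without wild-type library 1. CMT2, a methyltransferase of heterochromatin, measured 33.7 and 42.6 CPM in heterozygous siliques, against 28.5 and 30.9 CPM in wild-type siliques. DML2, a DNA glycosylase that removes methylated cytosine, measured 77.2 and 80.2 CPM in heterozygous siliques, against 71.5 and 56.6 CPM in wild-type siliques. MET1 and DME, the main maintenance methyltransferase and the glycosylase of the central cell, overlapped. In the list of microRNA and post-transcriptional silencing, 3 of 14 members were above and 1 was below. SGS3, which with RDR6 makes secondary small RNAs, measured 28.3 and 32.6 CPM in heterozygous siliques, against 23.7 and 19.8 CPM in wild-type siliques (log2 difference 0.49 ± 0.15). DCL1, DCL2 and DCL4 differed by log2 values of 0.10, -0.02 and -0.07. No member of either list was called.

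Imprinted and endosperm genes were split, with 3 of 17 below and 5 above, and a median log2 difference of -0.23. FIS2, a Polycomb gene of the central cell and endosperm, measured 7.56 and 7.11 CPM in heterozygous siliques, against 13.1 and 7.70 CPM in wild-type siliques. FIE, another subunit of the same complex, measured 26.03 and 22.7 CPM in heterozygous siliques, against 15.2 and 20.02 CPM in wild-type siliques. FWA and PHE1, imprinted genes expressed in endosperm, overlapped. The median of the list turned positive without wild-type library 1 (0.08) and without heterozygous library 1 (0.03).

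Salicylic acid defence genes had 11 of 13 members lower, 4 (30.8%) below and a median log2 difference of -0.70, but without wild-type library 1 there were 5 lower and 8 higher members and the median was 0.06. The median was -1.08 without heterozygous library 1 and -0.34 without heterozygous library 2. Wild-type library 1 held the higher wild-type value for WRKY54, a transcription factor of the defence response, at 2.34 and 2.17 CPM in heterozygous siliques and 8.60 and 1.54 CPM in wild-type siliques. NPR1, the salicylic acid receptor and co-activator, measured 18.1 and 17.7 CPM in heterozygous siliques, against 24.5 and 21.3 CPM in wild-type siliques (log2 difference -0.36 ± 0.14). Jasmonate genes had 5 of 14 above and 1 below. The vegetative storage protein VSP2 measured 1009 and 587 CPM in heterozygous siliques, 869 and 2169 CPM in homozygous siliques, and 359 and 478 CPM in wild-type siliques.

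**Figure D5:**
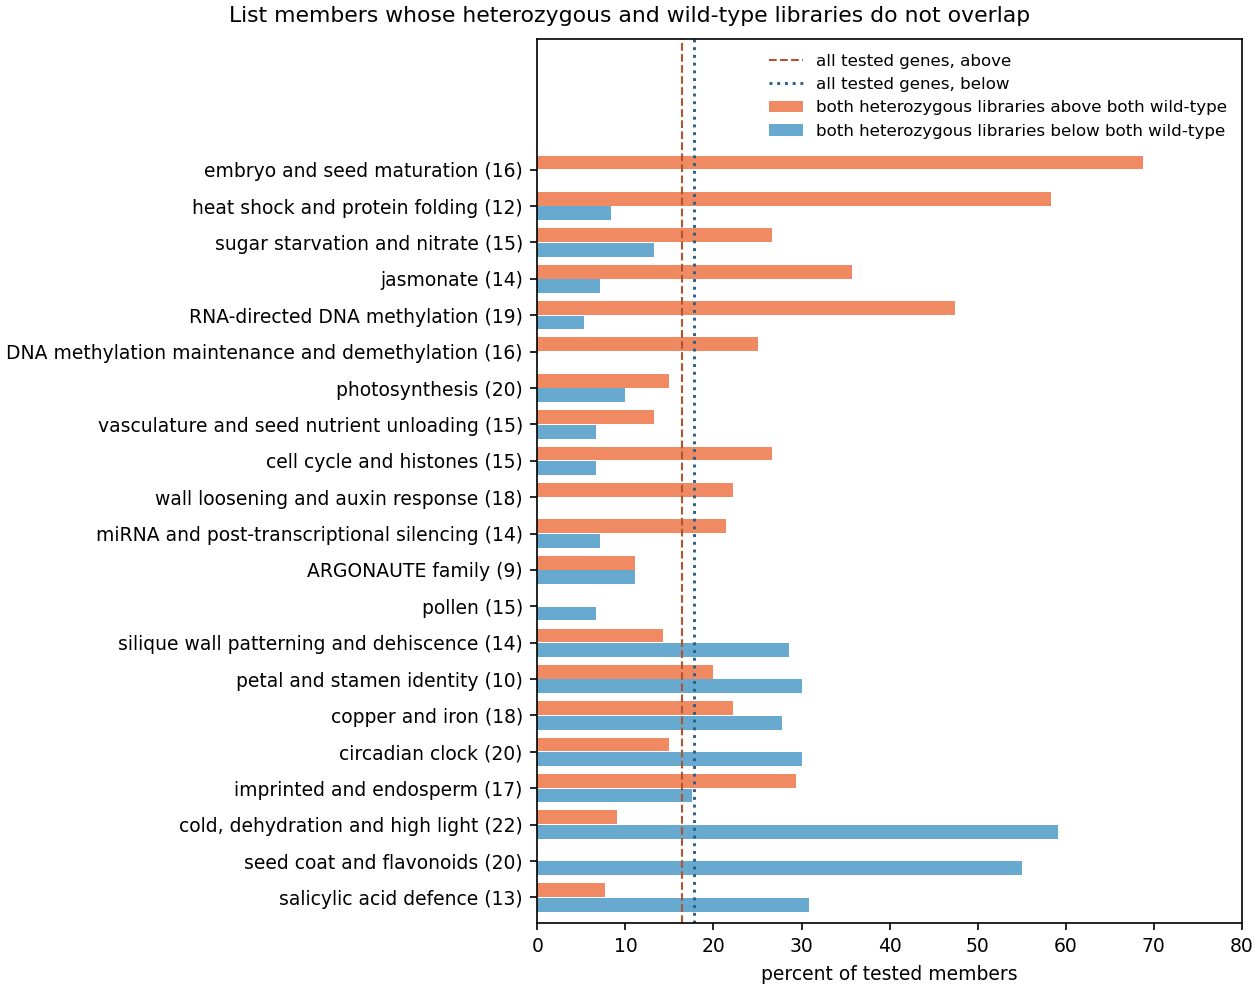
Percent of tested members of each of the 21 lists for which both heterozygous libraries lie above (orange) or below (blue) both wild-type libraries, with the number of tested members in brackets. Dashed and dotted lines mark 16.4% above and 17.8% below over all tested genes. Lists were chosen with earlier results of these data known. Embryo maturation reaches 68.8% above, and the cold and flavonoid lists reach 59.1% and 55% below.

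Markers of the tissues that a silique sample can hold were compared in the same way. The 15 pollen genes tested had a summed level of 262 and 363 CPM in heterozygous siliques, 202 and 132 CPM in homozygous siliques, and 330 and 268 CPM in wild-type siliques, with 1 member below and 0 above. Photosynthesis genes had 2 of 20 below and 3 above, and log2 differences between -0.26 and 0.15. Flower organ genes had 3 of 10 below (AP1, AG and AP3) and 2 above (TPD1 and AMS), and SEP1, SEP2, SEP3, PI and MYB26 overlapped. AP1 measured 10.6 and 9.82 CPM in heterozygous siliques, against 18.5 and 13.0 CPM in wild-type siliques. AG, which specifies stamens and carpels, measured 30.8 and 30.5 CPM in heterozygous siliques, against 38.9 and 34.6 CPM in wild-type siliques. In the fruit wall, AGL8 (FRUITFULL), which patterns the valves, measured 75.8 and 68.8 CPM in heterozygous siliques, against 101 and 88.4 CPM in wild-type siliques (log2 difference -0.39 ± 0.12). In all, 4 of 14 fruit wall genes were below (AGL8, NST1, ALC and SHP1) and 2 were above (SPT and ADPG1). Among seed nutrient transporters SAG29 (SWEET15), a sugar exporter of the seed coat and endosperm, measured 47.9 and 64.3 CPM in heterozygous siliques, 59.2 and 22.5 CPM in homozygous siliques, and 11.001 and 40.6 CPM in wild-type siliques. As in the embryo maturation sums, wild-type library 1 and homozygous library 2 held the lowest values. The part of tissue composition in the results above was not tested.

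Circadian clock genes had 6 of 20 below and 3 above and a median log2 difference of -0.12. The median was -0.17 without wild-type library 1, -0.06 without wild-type library 2 and -0.01 without heterozygous library 2. LHY, a morning transcription factor, measured 3.57 and 3.02 CPM in heterozygous siliques, against 4.89 and 5.12 CPM in wild-type siliques, while its partner CCA1 measured 7.11 and 7.05 CPM in heterozygous siliques and 6.68 and 6.62 CPM in wild-type siliques. The hour of harvest is not given in the sources used here. Copper and iron genes had 5 of 18 below and 4 above. FER1, an iron-storage ferritin, measured 201 and 188 CPM in heterozygous siliques, 164 and 164 CPM in homozygous siliques, and 252 and 296 CPM in wild-type siliques (log2 difference -0.49 ± 0.12, DESeq2 adjusted p 0.0949). Of the other ferritins, FER3 and FER4 were below at log2 differences of -0.12 and -0.07. FER2 was above, at 3.17 and 2.26 CPM in heterozygous siliques, against 1.59 and 1.61 CPM in wild-type siliques. The median log2 difference of this list was -0.05, and 0.09 without heterozygous library 2. Cell cycle and histone genes had 4 of 15 above and 1 below, led by the histone H4 gene HIS4 at 10.05 and 8.80 CPM in heterozygous siliques, against 6.41 and 5.73 CPM in wild-type siliques. In the wall loosening list 4 of 18 members were above and 0 below, in the sugar starvation list 4 of 15 above and 2 below, and in the vasculature list 2 of 15 above and 1 below, with no call by either test.

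Of the 10 genes with the smallest p among those higher in heterozygous siliques, XTH18 had the largest log2 difference. It was not called on all 6 libraries, and DESeq2 called it without heterozygous library 2 and without wild-type library 2. XTH18, a xyloglucan-remodelling wall enzyme, measured 10.2 and 3.22 CPM in heterozygous siliques, against 0.27 and 1.22 CPM in wild-type siliques (log2 difference 3.22 ± 0.80). With all libraries, DESeq2 gave an adjusted p of 0.586. JAC1, needed for chloroplast movement in response to light, measured 18.7 and 19.7 CPM in heterozygous siliques, against 13.6 and 11.03 CPM in wild-type siliques (log2 difference 0.64 ± 0.16).

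Genes near AGO3 on chromosome 1 did not stand out from the genome. Of 373 tested genes within 1 Mb of AGO3, 7 were lower (1.88%) and 4 higher (1.07%) at an unadjusted p of 0.05. Both heterozygous libraries were below for 65 of them and above for 58 (15.5%). Across the 5 chromosomes the share of genes lower at that threshold ran from 2.38% to 3.08% and the share higher from 1.67% to 2.12%.

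Small RNA reads were summed over the 500 bp windows that overlap each gene, in 1 library per condition, so that these values compare libraries and carry no test. Over AGO3 itself the AGO3 immunoprecipitate held 6158 reads and the control 540, a depth-scaled ratio of 7.85 (95% exact binomial interval 7.19 to 8.59, for counting error only). The immunoprecipitate came from ago3-3 plants carrying a tagged AGO3 construct, and reads of that construct cannot be told apart from reads of the locus. A ratio could be set for 14 of the 16 genes called by DESeq2, and it ran from 0.167 to 5.34. The highest, that of AT4G35320, rested on 31 reads in the AGO3 immunoprecipitate and 4 in the control (interval 1.89 to 20.8). ELIP1 held 328 reads in the AGO3 immunoprecipitate and 87 in the control (ratio 2.6, interval 2.04 to 3.33). NIT3 held 8 and 33 reads (ratio 0.167, interval 0.0666 to 0.369), and ARP9 held 1058 and 1243 reads (ratio 0.586, interval 0.54 to 0.637). The 16 genes held a median of 69 reads in the total small RNA library, with a range of 3 to 3498. Genes called lower in heterozygous siliques thus lay on both sides of a ratio of 1, with no ratio over all genes set beside them.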

How the data were processed

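Per the submitters' processing notes, HISAT2, featureCounts, Bowtie and genome build TAIR10 were used. Versions, strand setting and the counting of shared reads are not stated, so overlapping, antisense and near-identical genes are uncertain. The deposited mRNA table holds the authors' estimated counts for each gene without depth scaling, and 7.88% of 205572 values are not whole. The deposited small RNA table holds the authors' raw read counts per 500 bp window.

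Estimated counts were rounded and fitted with edgeR 4.0.16 (R 4.3.3; TMM, filterByExpr by genotype, default quasi-likelihood settings) on all 6 mRNA libraries, with 3 residual degrees of freedom and a Benjamini-Hochberg threshold of 0.05 over all tested genes. The SE of an edgeR log2 difference was calculated as its absolute value divided by the square root of the quasi-likelihood F statistic. An exact permutation test of 2 against 2 libraries cannot go below a two-sided p of 0.333. DESeq2 1.42.0, limma-voom (limma 3.58.1), DESeq2 size factors, no low-count filter, the 4 compared libraries alone, a replicate block, structural RNA left out and left-out libraries were the alternatives. Code was tested on simulated data.

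Named genes were AGO3 and AGO2, every gene called by edgeR or DESeq2, the 10 smallest p-values in each direction among genes whose log2 CPM averaged 1 or more, and from each list the largest differences, at most 4, among members of that level whose genotypes did not overlap. Other genes are list members or neighbours chosen after their values were seen. The members and the 21 lists were chosen with earlier results of these data known. Of 364 list entries, 7 had no match in the gene table (TAIR10.1 names). Promoter sequences were not used here. Of the same-numbered libraries, deviations from the genotype means correlated at -0.0447 between heterozygous and wild type, so the numbers were not taken as pairs.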

Additional observations from a re-analysis of the deposited data

How the results depend on the processing

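The count of 0 genes past the edgeR test also came from DESeq2 size factors, limma-voom, no low-count filter, the 4 compared libraries alone, structural RNA left out, bias-adjusted quasi-dispersion and the replicate block, under which 679 genes had an unadjusted p under 0.05. With 1 library left out edgeR called 0 to 4 genes, and 667 to 1917 had an unadjusted p under 0.05. DESeq2 called 16 genes, or 17 on all rows with a count (chosen after seeing the data). With 1 library left out, also chosen after seeing the data, it called 17, 7, 20 and 243 genes without heterozygous library 1, heterozygous library 2, wild-type library 1 and wild-type library 2, and 535, 586, 663 and 1594 had an unadjusted p under 0.05 in the same order. Leaving out homozygous library 2 and wild-type library 1 gave 22 calls by edgeR. The cause of these shifts was not tested. A library left alone in its genotype was assumed to vary like the others. The log2 difference of AGO3 kept its direction in every alternative, from -1.30 to -0.51. It passed the threshold only by DESeq2 without wild-type library 2, at -1.30. No result reversed where it had been called. Libraries that do not overlap numbered 7767 genes with TMM (heterozygous below for 4050, above for 3717). With DESeq2 size factors the number was 7784 (below for 3947, above for 3837), so the lean to lower values was smaller. At this depth and without TMM scaling, levels below 0.0827 CPM rest on fewer than 3 counts in every library.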

Other observations

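Several abundant genes were near the heterozygous level in wild-type library 2 and far below it in wild-type library 1. They were chosen after their values were seen, and none was called by either test on all 6 libraries. JMT, which methylates jasmonic acid, measured 179 and 186 CPM in heterozygous siliques, against 11.5 and 266 CPM in wild-type siliques. CSY1, a peroxisomal citrate synthase, measured 37.6 and 55.7 CPM in heterozygous siliques, against 2.03 and 36.5 CPM in wild-type siliques. AT1G62060 measured 306 and 424 CPM in heterozygous siliques, against 0.838 and 280 CPM in wild-type siliques. SAG12, a cysteine protease known from senescing leaves, instead stood apart in heterozygous library 2, at 4.85 and 25.4 CPM in heterozygous siliques and 1.86 and 3.65 CPM in wild-type siliques.

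Other genes were high in 1 wild-type library only. AT2G25510 measured 7.71 and 6.09 CPM in heterozygous siliques, against 55.1 and 12.7 CPM in wild-type siliques. Near AGO3, ECS1 measured 96.3 and 74.8 CPM in heterozygous siliques, against 217 and 110 CPM in wild-type siliques. The rRNA gene AT2G01010 was high in wild-type library 2, at 92.02 and 25.6 CPM in heterozygous siliques and 85.6 and 812 CPM in wild-type siliques.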
